A study of Mus musculus with 16 samples.

Results

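The genes described here are 10 that encode secreted acute-phase proteins: Lcn2, Saa1, Saa2, Saa3, Serpina3n, Lrg1, Hp, Orm1, Cp and A2m. They were chosen by gene name, with earlier results of these data known. Each of the 10 matched 1 of the 57143 rows of the expression table. Male C57BL/6 mice had abdominal surgery with sevoflurane, an inhaled agent, as the anaesthetic. Poly(A) RNA of the left ventricle was sequenced in 4 libraries for each of 4 times, 0h, 3h, 24h and 7d. The 0h libraries, which served as the baseline, carry the same post-surgery label as the others, so no unoperated or anaesthesia-only group enters any comparison. Nothing in the labels says whether the 4 libraries of a time came from separate mice, so p-values measure the spread between libraries, which may be partly technical.

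Acute-phase proteins are plasma proteins whose amounts shift during inflammation, infection and tissue injury. Most are made by hepatocytes, in which interleukin-6 acts through STAT3 and interleukin-1 through C/EBP factors and NF-kappa-B on their genes. Several are also transcribed outside the liver, among them Lcn2, Saa3, Serpina3n and Lrg1. In a bulk tissue library, RNA made by heart cells, RNA from blood or infiltrating cells and RNA carried over from another organ are counted together. Likewise, more cells of a type and more RNA per cell cannot be told apart.

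Libraries held between 8313655 and 12893551 counts on genes. The 10 cardiomyocyte markers summed to between 76591 and 98733 TPM (a level scaled by transcript length and library) in every library, and each was detected at each time. Some libraries stood apart in genes of other tissues. Alb, the plasma albumin gene of hepatocytes, was at 35.6, 28.5 and 5.42 TPM in 3h replicates 2, 3 and 4, from 259, 218 and 41 counts, and had no count in 3h replicate 1. In the other 12 libraries it had at most 4 counts. Myl7, the atrial myosin light chain gene, was at 146 TPM in 3h replicate 3 and at 63.8, 126 and 159 TPM in 24h replicates 1, 2 and 4, against 6.97 TPM in 24h replicate 3 and at most 9.59 TPM elsewhere. The members' calls that were lost without these libraries are given with and without them.

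The promoters of the members on which the results turn are shown first, since these genes are known for induction through shared transcription factors. RefSeq promoter windows (GRCm38.p6, 250 bases before the start) were found for Lcn2, Saa1, Saa2, Saa3, Serpina3n, Lrg1 and Cp. Stretches that no GENCODE M21 exon covers are printed 5′ to 3′ on the gene's own strand, with a match to the C/EBP letters TTGCNNAA, searched on both strands, in capitals.
Saa3, chr7:46715701-46715926, minus strand: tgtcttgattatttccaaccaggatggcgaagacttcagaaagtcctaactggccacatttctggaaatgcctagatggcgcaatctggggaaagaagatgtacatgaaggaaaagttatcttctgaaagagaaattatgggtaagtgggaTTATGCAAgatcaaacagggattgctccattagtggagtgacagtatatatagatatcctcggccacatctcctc
Saa1, chr7:46742981-46743230, minus strand: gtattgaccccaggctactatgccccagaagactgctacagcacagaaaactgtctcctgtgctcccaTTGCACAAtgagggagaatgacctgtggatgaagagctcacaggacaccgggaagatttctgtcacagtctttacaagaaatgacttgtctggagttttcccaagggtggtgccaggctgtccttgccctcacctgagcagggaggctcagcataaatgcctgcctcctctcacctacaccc
Saa2, chr7:46751583-46751789, plus strand: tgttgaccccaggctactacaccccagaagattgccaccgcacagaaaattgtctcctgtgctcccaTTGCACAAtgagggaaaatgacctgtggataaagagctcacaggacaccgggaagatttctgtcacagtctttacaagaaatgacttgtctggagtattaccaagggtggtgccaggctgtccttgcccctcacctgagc
Serpina3n, chr12:104406458-104406707, plus strand: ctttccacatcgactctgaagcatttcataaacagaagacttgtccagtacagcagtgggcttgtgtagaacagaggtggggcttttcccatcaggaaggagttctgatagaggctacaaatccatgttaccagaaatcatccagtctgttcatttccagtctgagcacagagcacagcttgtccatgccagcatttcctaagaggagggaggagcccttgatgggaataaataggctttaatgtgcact
Lrg1, chr17:56122002-56122196, minus strand: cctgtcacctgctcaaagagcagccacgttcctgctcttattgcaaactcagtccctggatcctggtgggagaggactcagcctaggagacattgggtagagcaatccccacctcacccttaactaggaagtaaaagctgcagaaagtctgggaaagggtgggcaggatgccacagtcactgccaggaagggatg
The C/EBP letters were present once each in the 250-base windows of Lcn2, Saa1, Saa2, Saa3 and of 1 of the 2 Cp starts, and were not found in those of Serpina3n and Lrg1. They occur in 9.56% of all 32851 windows of that length. The letters were settled after these sequences were seen, so that share is no test of the members' windows. The STAT letters TTCNNNGAA, found in 7.02% of windows, and an NF-kappa-B consensus, found in 3.90%, had no match in a member's window, and no member's C/EBP match overlapped another motif searched. These are matches of letters in a short window and say nothing of binding. The Saa1 and Saa2 windows were identical at 94.8% of 251 aligned positions, whereas Saa1 and Saa3 were identical at 52.5% of 276.

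Levels at 0h and their order are described next, since TPM can be compared between genes. Lrg1, a leucine-rich glycoprotein that binds a TGF-beta co-receptor, made up the largest part at 0h, with 59.0% of the summed member level of 153 TPM at 0h. Cp, the copper-carrying ferroxidase ceruloplasmin, was second at 41.7 ± 5.33 TPM (SD, n = 4), and Serpina3n, a serine protease inhibitor of the alpha-1-antichymotrypsin group, came next at 14.8 ± 5.57 TPM. Lcn2, the siderophore-binding lipocalin-2, and Hp, the haemoglobin-binding haptoglobin, followed at 3.20 ± 1.92 and 2.68 ± 3.35 TPM, with overlapping libraries. A2m, a broad protease inhibitor, was at 0.352 ± 0.133 TPM. Orm1, an acid glycoprotein of the lipocalin family, and the serum amyloid A genes Saa1, Saa2 and Saa3, whose products ride on lipoproteins, had at most 1 count over all 4 libraries at 0h.

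The summed mean level of the members was 327 TPM at 3h, 594 TPM at 24h and 198 TPM at 7d. The order changed along with it. Serpina3n stood above Cp at 3h and 24h, and Lcn2 passed Cp in mean level at 24h, though the libraries of those 2 genes overlapped there. A filter of a mean of at least 0.5 TPM over the 16 libraries kept 16866 genes for testing, among them Lcn2, Saa3, Serpina3n, Lrg1, Hp and Cp. Saa3 passed at a mean of 0.762 TPM, which it owed to its 24h libraries. Saa1, Saa2, Orm1 and A2m lay below the filter, Orm1 just outside it at 0.497 TPM, and are described by their counts further on.

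**Figure D1:**
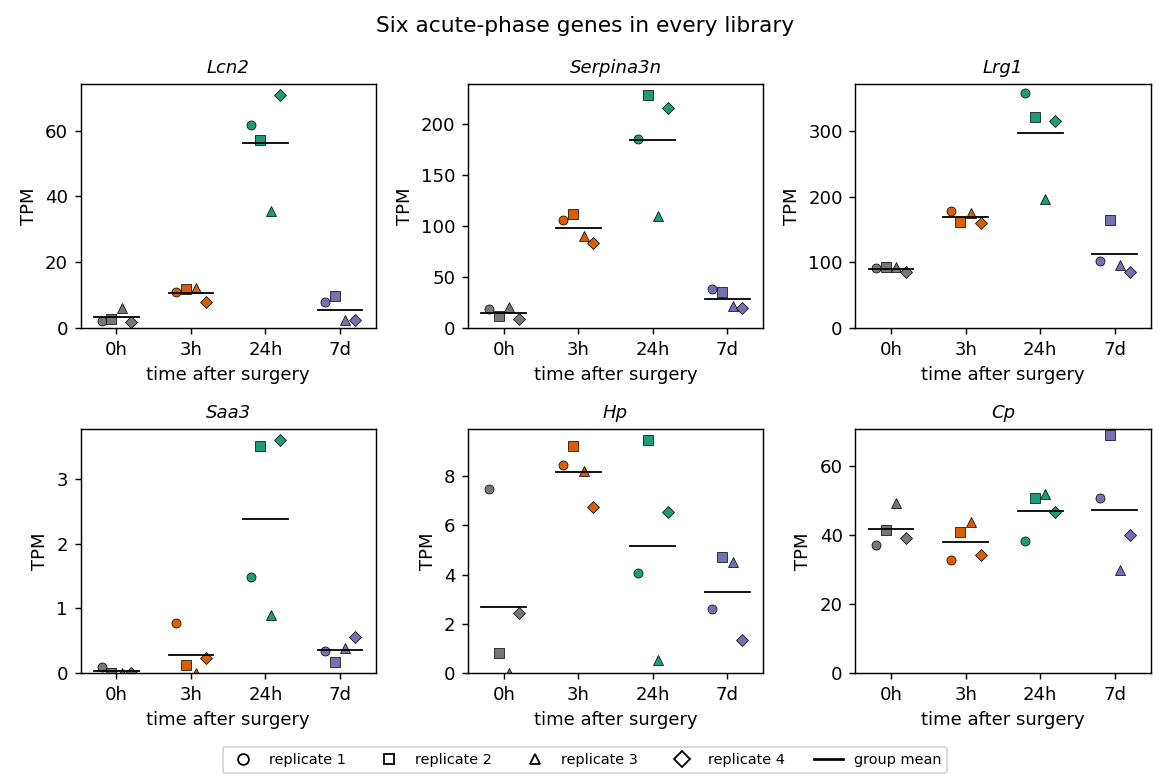
TPM (vertical axis, linear, starting at 0) of Lcn2, Serpina3n, Lrg1, Saa3, Hp and Cp in each library at 0h, 3h, 24h and 7d; each symbol is 1 library and the line is the mean of 4. The 24h libraries of Lcn2 lie between 35.5 and 70.9 TPM, above every library of the other times, while those of Cp lie within the range of the other times.

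Serpina3n (chr12:104406729-104414329, plus strand, GRCm38) had the largest called difference at 3h among the 6 tested members. It measured 18.4, 11.4, 20.6 and 8.92 TPM in the 4 libraries at 0h and 106, 112, 90.5 and 82.9 TPM at 3h. All 4 values at 3h were above all 4 at 0h. At 24h it measured 185, 229, 110 and 216 TPM, with replicate 3 inside the range of the 3h libraries and the others above it. At 7d it was at 38.6, 35.0, 21.4 and 19.2 TPM, and the lowest of these lay inside the 0h range. The log2 fold change against 0h was 2.91 (SE 0.32, adjusted p = 0.000849) at 3h and 3.88 (SE 0.32, adjusted p = 1.22e-05) at 24h by edgeR's quasi-likelihood test. At 7d it was 1.04 (SE 0.33, adjusted p = 0.144), which did not pass, although DESeq2 gave an adjusted p of 0.0390. Of its 50-base stretches of transcript, 6.75% were shared with other Serpina3 genes, so some reads could belong to a relative.

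Lcn2 (chr2:32384633-32388252, minus strand) reached its highest level at 24h. It measured 2.19, 2.71, 6.04 and 1.88 TPM at 0h and 10.9, 11.9, 12.2 and 7.78 TPM at 3h, with no overlap between these groups. The 24h libraries, at 61.8, 57.3, 35.5 and 70.9 TPM, were all above the 3h libraries. At 7d, replicates 1 and 2 were at 7.83 and 9.64 TPM and replicates 3 and 4 at 2.47 and 2.29 TPM, the latter pair inside the 0h range. The log2 fold change was 4.43 (SE 0.46, adjusted p = 6.47e-05) at 24h against 0h. At 3h against 0h it was 1.98 (SE 0.51, adjusted p = 0.0430, edgeR). That early call was lost on leaving out any 1 of 7 of the 8 libraries compared, 0h replicate 3 being the exception, with adjusted p from 0.0349 to 0.138, at 0.0774 with no expression filter and at 0.0582 without the libraries with Myl7 above 10 TPM.

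Lrg1 (chr17:56119678-56122001, minus strand) was the most abundant member in every group. It measured 90.9, 92.8, 93.5 and 84.5 TPM at 0h, 178, 161, 175 and 160 TPM at 3h, and 359, 322, 196 and 316 TPM at 24h. The 3 groups did not overlap. At 7d it measured 102, 164, 96.6 and 85.9 TPM, with replicate 2 at the level of the 3h libraries and the rest near the 0h range. The log2 fold change against 0h was 1.09 (SE 0.22, adjusted p = 0.0109) at 3h and 1.96 (SE 0.22, adjusted p = 5.40e-05) at 24h by edgeR. At 7d it was 0.42 (SE 0.22, adjusted p = 0.369).

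Saa3 (chr7:46711998-46715700, minus strand), the serum amyloid A gene known for transcription outside the liver, was near 0 at baseline. Its counts were 1, 0, 0 and 0 at 0h, 7, 1, 0 and 2 at 3h, 16, 29, 8 and 33 at 24h, and 3, 2, 4 and 6 at 7d. The 24h libraries, at 0.901 to 3.60 TPM, were above all others. The summed counts, scaled by library totals, at 24h were 83.7 times those at 0h, with a 95% counting interval of 14.6 to 3344 because the baseline rests on 1 read. Saa3 entered the tested genes through its 24h libraries. Its rise at 24h against 0h was therefore also read from the fit with no filter. The adjusted p there was 8.66e-07 (0.000158 with the filter, edgeR). The difference at 3h did not pass in either fit (adjusted p = 0.288 and 0.234). At 7d all 4 libraries were above all 4 at 0h, as in 1.96% of the genes tested, yet the difference did not pass (adjusted p = 0.257).

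Hp (chr8:109575128-109579172, minus strand) ranged widely among the baseline libraries and passed no test in the fit over all libraries. It measured 7.46, 0.805, 0 and 2.46 TPM at 0h and 8.44, 9.22, 8.19 and 6.74 TPM at 3h. At 24h it measured 4.08, 9.45, 0.548 and 6.55 TPM, and at 7d 2.59, 4.73, 4.5 and 1.35 TPM. The 3h group was the tightest, and 0h replicate 1 lay within its range. The log2 difference at 3h was 1.61 (SE 0.66, adjusted p = 0.162, edgeR), and the test for any change over the 4 times gave an adjusted p of 0.198. On leaving out 1 library, that test passed without 0h replicate 1, at 0.0383. At 7d Hp was below 3h in all libraries, and a fit of those groups alone called that difference (-1.37, adjusted p = 0.00948, edgeR). Of all 16 libraries, 0h replicate 1 had the highest levels of the adipocyte genes Cfd (19.8 TPM) and Adipoq (3.97 TPM). Their part in its Hp level was not tested.

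Cp (chr3:19957054-20009145, plus strand) passed no test in the fit over all libraries. It measured 36.9, 41.4, 49.2 and 39.2 TPM at 0h, 32.8, 40.8, 43.8 and 34.1 TPM at 3h, 38.3, 50.7, 51.7 and 46.7 TPM at 24h, and 50.7, 68.8, 29.9 and 39.8 TPM at 7d. The groups overlapped throughout, and the widest spread was at 7d. Its log2 difference was 0.38 (SE 0.18, adjusted p = 0.156) at 24h against 0h, and a fit of those groups alone gave the same 0.38 an adjusted p of 0.0497. At 3h it was 0.04 (SE 0.18, adjusted p = 0.925, edgeR), and its sign turned to -0.14 on the log2(TPM + 1) scale. With 23280 counts over the 16 libraries Cp was the most deeply counted member, so the SE of 0.18 sets the size of change that could be seen.

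**Figure D2:**
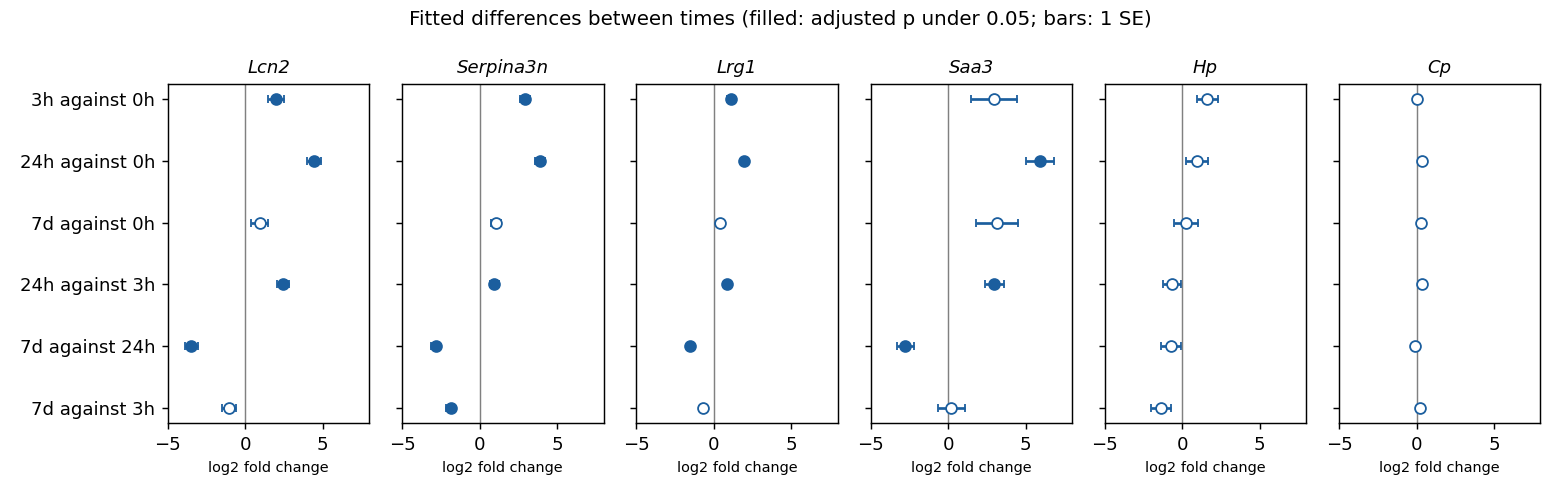
Fitted log2 fold change (horizontal axis) of the 6 tested members in each of 6 comparisons (rows), by edgeR; bars are 1 SE and filled points passed an adjusted p of 0.05. Lcn2, Serpina3n, Lrg1 and Saa3 are filled at 24h against 0h and at 7d against 24h, and no point is filled at 7d against 0h; the Cp point at 3h, 0.04, changes sign on the log2(TPM + 1) scale.

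Counted over the tested members, 3 of 6 (Serpina3n, Lrg1 and Lcn2) were higher at 3h than at 0h and none lower, where 2.01% of all 16866 genes were called higher and 5.31% in either direction. At 24h 4 of 6 were higher than at 0h, against 9.53% of all genes higher and 18.1% in either direction; Saa3, tested because of its 24h level, is 1 of these 4. At 7d 0 of 6 passed by edgeR against 1.12% of all genes. An unadjusted p under 0.05 was found for 2 of the 6, Serpina3n and Saa3, as for 16% of all genes, and 1, Serpina3n, passed by DESeq2, as did 3.3% of the genes that tool gave an adjusted p. The median log2 difference of the 6 was 1.80, 2.92 and 0.68 at the 3 times, beside 0.0035, -0.010 and -0.00048 over all genes. The libraries of the 2 times did not overlap, with the later higher, for 3 of the 6 at 3h, as for 3.36% of all genes, and for 4 at 24h, as for 4.25%. These 3 comparisons share the 0h libraries, so they are not independent of each other. The members were chosen with earlier results of these data known, so their shares are no test against all genes. Each fold change is relative to the median gene. On the log2(TPM + 1) scale that median moved by -0.15 at 3h and -0.19 at 24h, and the direction of the 4 members called was the same on both scales.

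From 3h to 24h, Lcn2 rose further by 2.45 (SE 0.39, adjusted p = 0.00203) and Saa3 by 2.98 (SE 0.60, adjusted p = 0.00348) on the log2 scale by edgeR. Lrg1 was higher by 0.87 (SE 0.21, adjusted p = 0.0196) and Serpina3n by 0.96 (SE 0.28, adjusted p = 0.0485). Without the libraries with Myl7 above 10 TPM, which leaves 24h replicate 3 against 3 libraries at 3h, these differences were 1.69 for Lcn2 (adjusted p = 0.176), 1.07 for Saa3 (0.566), 0.12 for Lrg1 (0.873) and 0.018 for Serpina3n (0.994), and none was called. With all libraries they make 4 of 6 members, where 4.09% of all genes were called higher and 7.78% in either direction. Saa3, tested because of its 24h level, is 1 of these 4. Its calls in each comparison with 24h, and over the 4 times, were partly set by that entry. For 3 of the 6, Lcn2, Saa3 and Lrg1, the 24h libraries were all above the 3h libraries, as for 5.16% of genes. The Serpina3n call was lost without any 1 of 7 of the 8 libraries, 24h replicate 3 being the exception, with adjusted p up to 0.122. The Lrg1 call was lost without 3h replicate 2, 3 or 4 or 24h replicate 1 or 4, with adjusted p up to 0.0787, so that 2 members were called without any of those 5. From 24h to 7d the same 4 genes fell, with log2 fold changes of -3.49 for Lcn2 (adjusted p = 0.000218), -2.83 for Serpina3n (adjusted p = 6.62e-05), -2.77 for Saa3 (adjusted p = 0.00225) and -1.54 for Lrg1 (adjusted p = 0.000431). Of all genes, 4.6% were called lower and 8.44% in either direction in that comparison, and 3.27% did not overlap in that direction, as was the case for these 4. Between 3h and 7d, only Serpina3n of the 6 was called, lower by 1.87 (SE 0.30, adjusted p = 0.00246), where 2.88% of genes were called lower and 4.87% in either direction. The Serpina3n call was lost without the 3 libraries at 3h with Alb above 1 TPM (-2.09, adjusted p = 0.0869). Without 7d replicate 2, Lrg1 was called too (-0.94, adjusted p = 0.00342), which made 2. The 7d libraries were all below the 3h libraries for Serpina3n and Hp, as for 4.23% of genes. Over the 4 times, 4 of 6 passed the test for any change, as did 20.7% of all genes; Saa3 did not without the Myl7-high libraries (adjusted p = 0.0619).

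Each member was then set against Alb within the 3h libraries. Saa1 had 2, 17, 15 and 3 counts in 3h replicates 1 to 4, Saa2 had 1, 9, 9 and 7, and Orm1 had 0, 6, 7 and 4. The counts were high in replicates 2 and 3, where Alb was high, and low in replicate 1, where Alb had no count. Per 100 Alb counts, Saa1 stood at 6.56, 6.88 and 7.32 in replicates 2, 3 and 4, Saa2 at 3.47, 4.13 and 17.1, and Orm1 at 2.32, 3.21 and 9.76. The ratios in replicate 4 rest on 3, 7 and 4 counts of these genes, and replicate 1 had 2 Saa1 counts and 1 Saa2 count with none of Alb.

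Serpina3n, Lrg1, Lcn2 and Hp did not follow Alb. In 3h replicate 1, without an Alb count, Serpina3n had 758 counts, Lrg1 868, Lcn2 99 and Hp 47. As a share of the highest 3h library, these were at 95%, 100%, 88.9% and 91.5% of TPM in that library, while Saa1 was at 10.5%, Saa2 at 9.95% and Orm1 at 0%. Per 100 Alb counts, Serpina3n went from 276 in replicate 2 to 1349 in replicate 4 and Lrg1 from 271 to 1778. That library also had the highest neutrophil marker sum of the 16, given further on.

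**Figure D3:**
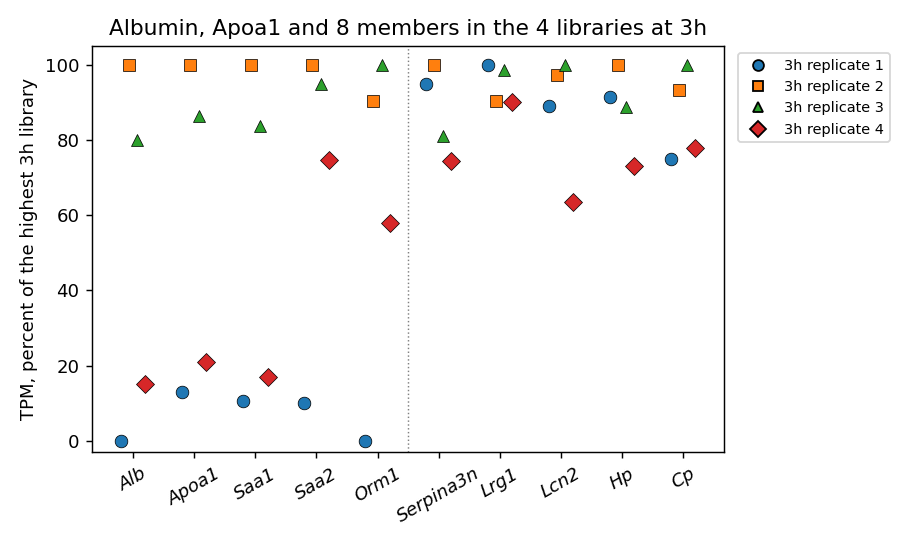
TPM in each 3h library as a percentage of the highest 3h library (vertical axis) for Alb, Apoa1 (a second plasma protein gene of hepatocytes) and 8 members; each symbol is 1 of the 4 libraries. Saa1, Saa2 and Orm1, left of the dotted line with Alb, are at 10.5%, 9.95% and 0% in replicate 1, whereas Serpina3n, Lrg1, Lcn2, Hp and Cp, to the right, are at 63.6% or more in every library.

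Without the 2 libraries at 3h with Alb above 10 TPM, the log2 fold change at 3h was 2.93 for Serpina3n (adjusted p = 0.0112) and 1.15 for Lrg1 (adjusted p = 0.0462), and 1.85 for Lcn2, which no longer passed (adjusted p = 0.144). Without all 3 with Alb above 1 TPM, which leaves 1 library at 3h assumed to vary like the other groups, Serpina3n alone was called (3.13, adjusted p = 0.0191), with Lrg1 at 1.27 (adjusted p = 0.157). The differences from 3h to 24h were called for Lcn2 alone in the first case and for none of the 6 in the second. With Lcn2, Serpina3n, Lrg1 and Saa3 at 2.58, 0.94, 0.80 and 2.13 in the first case, the sizes of the first 3 were near those over all libraries.

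The members below the filter were tested one by one with an exact two-sided permutation test on log2(TPM + 1), which cannot go below 0.0286 with 4 libraries against 4. Saa1 and Saa2 were higher at 3h than at 0h in all libraries (exact p = 0.0286 each), as were 1.57% of the 4446 genes below the filter with 10 or more counts in all. That p became 0.171 after adjustment over the 24 tests on these 4 genes. In summed counts scaled by library totals, Saa1 at 3h was 39.2 times its 0h level, from 37 counts against 1 (95% counting interval 6.62 to 1591). Saa2 was at least 9.19-fold higher, from 26 counts against none, taking 3 counts over the group as the floor. Orm1 had 17 counts at 3h against 1 at 0h, a ratio of 18.0 (2.82 to 753), and its groups overlapped (exact p = 0.143). A fit across all 29424 genes with no filter called all 3 at 3h, at adjusted p of 0.00203, 0.00274 and 0.0492 in edgeR, where 1.2% of those genes were called higher. Its log2 fold changes of 4.79, 5.88 and 3.70 rest on a baseline of 1, 0 and 1 counts.

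By 24h Saa1 had 0, 3, 1 and 3 counts, Saa2 had 0, 1, 0 and 2, and Orm1 had 0, 1, 0 and 1. At 7d Saa2 and Orm1 had none and Saa1 had 4 over all libraries. A2m measured 0.391, 0.506, 0.322 and 0.187 TPM at 0h and 0.0346, 0, 0.167 and 0.202 TPM at 24h, from 32 and 10 counts, with overlapping groups (exact p = 0.0571). At 3h A2m measured 0.452, 0.321, 0.348 and 0.220 TPM. All its 24h libraries were below these (exact p = 0.0286, and 0.171 after adjustment over the 24 tests). It was the one member with a lower mean at 24h than at 0h. Read assignment adds doubt for the small families. Of 50-base stretches, 13.2% of Saa1 were shared with Saa2 and 20.4% of Orm1 with Orm2, against 0.352% of Saa3 with Saa1. The relatives Saa4, Orm2 and Orm3 had 3, 4 and 2 counts over the 3h libraries and none at 0h.

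**Figure D4:**
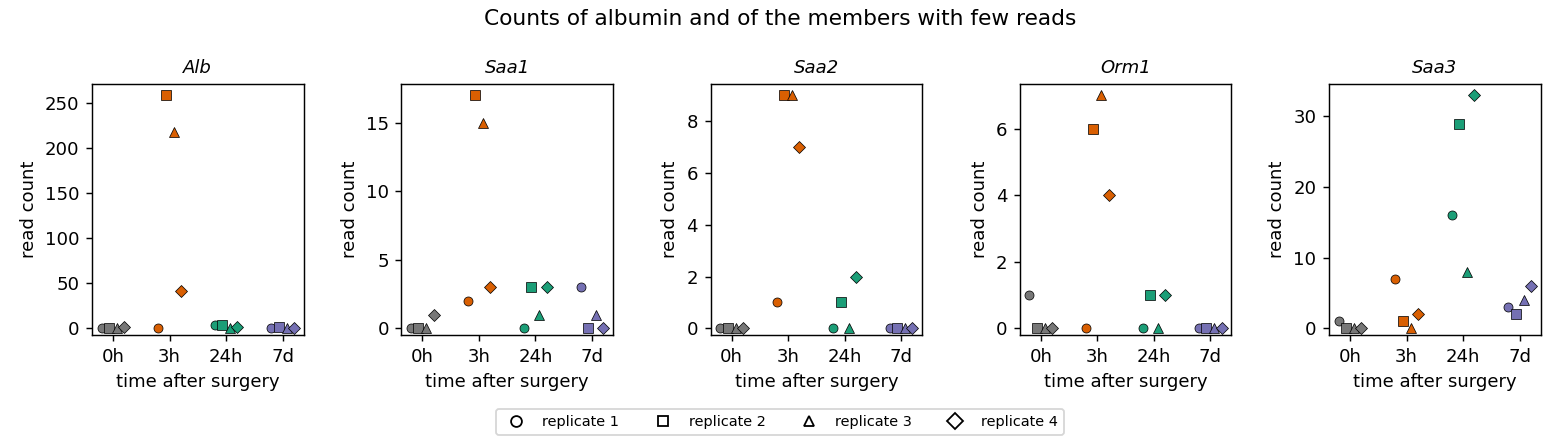
Read counts (vertical axis, linear, a separate scale for each gene) of Alb, Saa1, Saa2, Orm1 and Saa3 in each library by time; each symbol is 1 library. Alb, Saa1, Saa2 and Orm1 are highest in 3h replicates 2 and 3, and Saa3 is highest in 24h replicate 4, at 33 counts.

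Markers of other cell types were summed in the same libraries. The 20 neutrophil markers, of which 7 had no count at 0h, summed to 12.2 to 14.2 TPM at 0h, 164 to 592 TPM at 3h, 79.7 to 344 TPM at 24h and 19.1 to 114 TPM at 7d. Granule genes of neutrophil precursors were at or near 0. Elane had no count in any library, and Mpo, Camp, Ltf and Ngp had between 0 and 17 counts at each time. Lcn2 is itself stored in neutrophil granules, so its level was read beside this sum. The 3h library with the highest sum, replicate 1, had Lcn2 at 10.9 TPM, between the other 3h libraries. At 24h the library with the highest sum, replicate 4 at 344 TPM, also had the highest Lcn2 (70.9 TPM), while the one with the lowest, replicate 1 at 79.7 TPM, had the second highest (61.8 TPM). At 7d the library with the highest sum, replicate 2 at 114 TPM, had the highest Lcn2 (9.64 TPM), and the one with the lowest, replicate 3 at 19.1 TPM, had Lcn2 at 2.47 TPM, near the lowest. The part of neutrophils in the Lcn2 level was not tested beyond these values.

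The hepatocyte markers summed to 44.9 to 71.1 TPM at 0h and 51.0, 222, 234 and 91.9 TPM in 3h replicates 1 to 4. Of the 20 tested, 9 were called higher at 3h, where 2.01% of all genes were. Alb, with a mean of 17.4 TPM at 3h and at most 0.269 TPM at the other times, passed the filter through its 3h libraries. For such genes a call at 3h was partly set by that entry. Macrophage markers summed to 1375 to 1673 TPM at 0h, 1412 to 1801 TPM at 3h and 1026 to 1604 TPM at 24h. Of 11 tested, Cd14, C1qa and C1qb were higher at 3h (adjusted p = 0.0258, 0.0321 and 0.0365, edgeR), where 2.01% of all genes were. None was called at 24h, where 9.53% of all genes were called higher and 18.1% in either direction. The part of macrophages in the members' levels was not tested. The adipocyte markers other than Fabp4, which endothelium also makes, summed to 1.55 to 31.0 TPM at 0h and 1.43 to 23.1 TPM at 24h. This sum and Hp were both highest in replicate 1 at 0h and in replicate 2 at 24h. At 3h the sum was highest in replicate 3 (8.60 TPM), whereas Hp was highest in replicate 2, whose sum was lowest (0.825 TPM). At 7d the sum was highest in replicate 3 (6.26 TPM) and Hp in replicate 2. The part of adipocytes in the Hp level was not tested. Of 4 mesothelial markers tested, 2 were lower at 24h, and 4 of 10 fibroblast markers were lower and 1 higher, where 18.1% of all genes were called in either direction. The 12 endothelial markers summed to 553 to 757 TPM at 0h, 377 to 480 TPM at 3h and 393 to 609 TPM at 24h. At 3h 2 of them were called lower and 1 higher, where 5.31% of all genes were called in either direction. The part of endothelium in the members' levels was not tested.

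**Figure D5:**
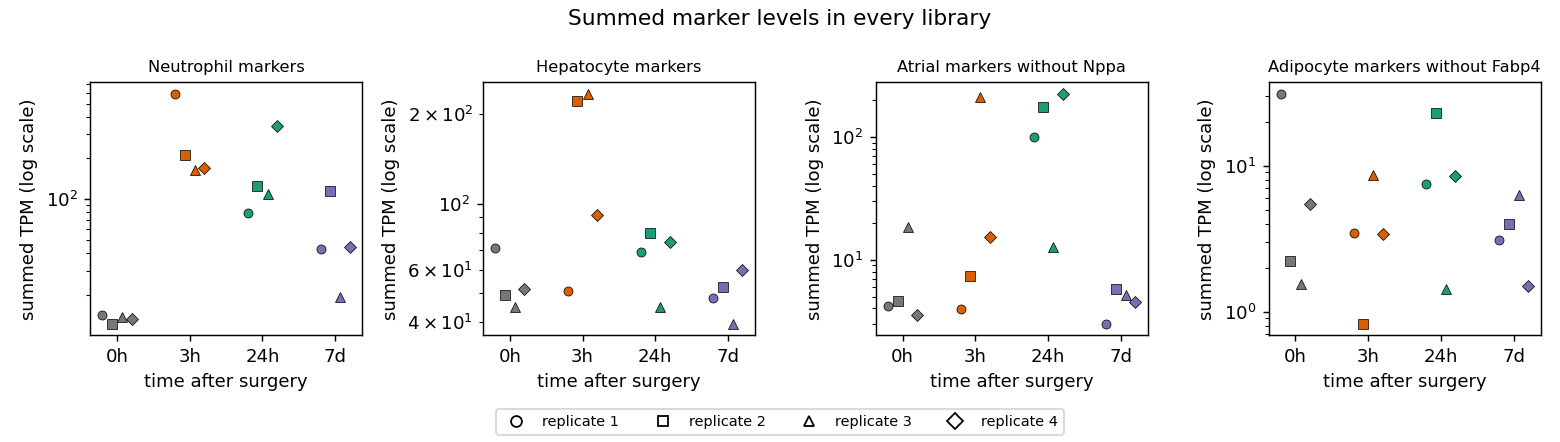
Summed TPM (vertical axis, log scale) of the neutrophil, hepatocyte, atrial and adipocyte marker lists in each library by time, the last 2 without Nppa and Fabp4; each symbol is 1 library. The hepatocyte sum is highest in 3h replicates 2 and 3 and the atrial sum in 3h replicate 3 and 24h replicates 1, 2 and 4, with 24h replicate 3 at 12.7 TPM.

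Myl7 was above 10 TPM in 3 libraries at 24h and in 1 at 3h, replicate 3, at 146 TPM. In that 3h library Serpina3n (90.5 TPM), Lrg1 (175 TPM) and Hp (8.19 TPM) lay inside the range of the other 3h libraries. Its Lcn2 (12.2 TPM) was the highest of that time, and it had no Saa3 count. Among the 24h libraries, replicate 3, the one with Myl7 below 10 TPM, was the lowest for Lcn2 (35.5 TPM), Serpina3n (110 TPM), Lrg1 (196 TPM), Saa3 (0.901 TPM) and Hp (0.548 TPM). Its Lcn2, Serpina3n, Lrg1 and Saa3 values were still above every 0h library. Leaving out the 4 libraries with Myl7 above 10 TPM, a choice made after seeing the data, left that library alone at 24h. Then 2 of the 6 were called against 0h, Serpina3n at 2.99 (adjusted p = 0.00612) and Lcn2 at 3.62 (adjusted p = 0.0405), whereas Lrg1 at 1.21 (adjusted p = 0.0685) and Saa3 at 4.46 (adjusted p = 0.116) were not. None of the 6 was then called at 24h against 3h, with the values given above, or at 7d against 24h, where the log2 differences were -2.67 for Lcn2 (adjusted p = 0.118), -1.95 for Serpina3n (0.0631), -1.28 for Saa3 (0.650) and -0.79 for Lrg1 (0.338). The part of atrial tissue in these levels was not tested further.

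Other acute-phase genes made a list of 40, of which 26 were tested. They were called higher in 10 cases at 3h and 7 at 24h and lower in none, beside 2.01% and 9.53% of all genes called higher. Their median log2 difference was 2.03 at 3h, 1.42 at 24h and 0.08 at 7d, when none was called by edgeR and 1 by DESeq2. At 3h the 4 with the smallest p were Hpx, the haem-binding hemopexin gene (0.0416 to 2.93 ± 2.44 TPM), Fgg, a fibrinogen chain gene (no count at 0h, 2.29 ± 2.32 TPM), Lbp, the lipopolysaccharide-binding protein gene (6.99 ± 0.69 to 11.5 ± 1.74 TPM), and Serpina3k (none at 0h, 6.07 ± 5.88 TPM). The list shares 11 genes with the hepatocyte markers, and Hpx, Fgg and Serpina3k had an SD close to their mean at 3h. Fgg and Serpina3k, with means of at most 0.108 and 0.0769 TPM outside 3h, passed the filter through their 3h libraries. The count at 3h was therefore partly set by that entry. The count fell from 10 to 2 without the 2 libraries with Alb above 10 TPM and to 0 without the 3 above 1 TPM. It was 4 to 6 on leaving out 0h replicate 1, 2 or 4 or 3h replicate 2 or 3.

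At 24h the 4 with the smallest p in that list were the metallothionein genes Mt1 (337 ± 96.5 to 1397 ± 760 TPM, adjusted p = 0.00349) and Mt2 (197 ± 146 to 1477 ± 929 TPM, adjusted p = 0.00592), Timp1, an inhibitor of matrix metalloproteinases (7.51 ± 1.40 to 32.8 ± 30.7 TPM, adjusted p = 0.00675), and Serpina3m (0.179 to 1.37 TPM, adjusted p = 0.00708, lost without 24h replicate 1). Serpina3m, with an SD of 0.158 TPM at 0h and 0.972 TPM at 24h, had a 0h mean below the filter. It was tested because of later times, so its call was partly set by that entry. The count of 7 became 13 without 24h replicate 3 and 0 without the libraries with Myl7 above 10 TPM.

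Transcription factors and feedback genes of the response were called higher in 8 of 28 cases at 3h and 2 at 24h, and in none at 7d. Beside 2.01% and 9.53% of all genes called higher at 3h and 24h, the 24h count is a smaller share than that of all genes. Socs3, the feedback inhibitor of STAT3 signalling, rose from 6.78 ± 1.21 to 44.5 ± 18.1 TPM at 3h (adjusted p = 0.00475), and was at 17.2 ± 12.8 TPM at 24h. Cebpd, the C/EBP-delta gene, rose from 23.2 ± 6.82 to 109 ± 15.6 TPM (adjusted p = 0.0102). Fosl2, an AP-1 subunit, went from 10.3 ± 1.25 to 18.8 ± 3.51 TPM and Bcl3, which binds NF-kappa-B subunits in the nucleus, from 6.13 ± 0.64 to 22.6 ± 8.83 TPM. Stat3 was higher at 24h, at 43.2 ± 7.89 against 36.6 ± 5.70 TPM (adjusted p = 0.0121). The count of 8 at 3h fell to 4 or 5 without any 1 library except 0h replicate 3, to 4 without the 2 libraries high in Alb and to 3 without the 3, and was 13 without the Myl7-high libraries and with DESeq2, which called 9.59% of its genes. The 2 calls at 24h were 1 without 0h replicate 1, 2 or 3 or 24h replicate 1 or 2, 4 without 24h replicate 3, and 0 without the Myl7-high libraries.

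Of 14 inducers and their receptors, 3 were higher and 1 lower at 3h, and 2 higher and 1 lower at 24h, where 5.31% and 18.1% of all genes were called in either direction. Nr3c1, the glucocorticoid receptor gene, fell from 56.7 ± 2.27 to 30.1 ± 4.18 TPM at 3h (adjusted p = 0.00203), and was at 34.4 ± 10.5 TPM at 24h (adjusted p = 0.00509). Il1r1, the interleukin-1 receptor gene, rose from 14.5 ± 3.38 to 22.4 ± 3.39 TPM at 3h (adjusted p = 0.00971). Osmr, the oncostatin M receptor gene, was at 7.30 ± 1.18, 12.6 ± 2.08 and 10.3 ± 2.74 TPM at 0h, 3h and 24h, and Tnfrsf1a at 61.2 ± 8.32 and 76.3 ± 5.55 TPM at 0h and 3h. On leaving out 1 library the adjusted p reached 0.0712 and 0.109 for Osmr at 3h and 24h and 0.111 for Tnfrsf1a. Il1b was at 3.22 ± 2.90 TPM at 24h against 1.24 ± 0.26 TPM, with an adjusted p up to 0.216 on leaving out 1 library. The count at 3h was 2 without 0h replicate 2 or 4 or 3h replicate 1, 1 without the 2 libraries high in Alb and 0 without the 3, and at 24h it was 1 without 0h replicate 1, 2 or 3 or 24h replicate 1 or 2. Without the Myl7-high libraries it was 0 at 24h, with Nr3c1 at -0.32 (adjusted p = 0.399).

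Of 23 receptors and partners of the members, 2 were higher and 2 lower at 3h and 5 higher and 2 lower at 24h, beside the same 5.31% and 18.1%. The smallest p was that of Slc40a1, the iron exporter ferroportin whose work needs a ferroxidase such as ceruloplasmin, from 10.4 ± 0.86 TPM at 0h to 17.3 ± 1.90 TPM at 24h (adjusted p = 5.85e-05). Tfrc, the transferrin receptor gene, fell from 27.8 ± 8.49 to 6.37 ± 2.56 TPM at 24h (adjusted p = 0.00340), and Cd36, a scavenger receptor that binds serum amyloid A, was at 1789 ± 174 and 2206 ± 24.8 TPM (adjusted p = 0.00438). Fpr1, a formyl peptide receptor gene, had no count at 0h and was at 1.12 ± 0.27 TPM at 24h (adjusted p = 0.00494, edgeR). It passed the filter through libraries of later times, so this call was partly set by that entry. At 3h Adgrl2 fell from 14.7 ± 0.94 to 7.60 ± 1.28 TPM (adjusted p = 0.00954). The count of 4 at 3h was 2 without 0h replicate 1, 2 or 3 or 3h replicate 1 or 4, 2 without the 2 libraries high in Alb and 0 without the 3, and the 7 at 24h became 1 without the Myl7-high libraries.

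Finally, the genes whose time course lay nearest to each tested member were found among 11378 genes with a mean of at least 2 TPM, by the root mean square difference of log2 counts scaled by library size, centred on 0h, over the 16 libraries. Serpina3n was nearest to Lcn2 and Lcn2 to Serpina3n, at 0.67. The next to Lcn2 was Mt2, a metallothionein gene, at 0.98. The next to Serpina3n were Retnlg, which is on the neutrophil list, at 0.91 and Mt2 at 0.93. Lrg1 had closer neighbours, Spock2 at 0.36, Car4 at 0.39 and Sult1a1 at 0.41. Saa3 lay nearest to Mmp3, Mgst1 and Fah, at 0.82 to 0.92, and Hp to Aldh1l1, Gadd45g and Socs3, at 1.05 to 1.09. Cp, which hardly moved, lay at 0.17 to 0.19 from Nsun2, Eef2k and Acadsb. These distances share libraries and depth and carry no test.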

How the data were processed

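The measurements are RNA-seq of polyadenylated RNA, made with a directional kit, per the labels. For every gene and all 16 libraries, a single table that the authors deposited gives read counts, TPM (length-scaled levels) and FPKM. The submitters' processing notes name cutadapt, STAR and the build mm10, with no versions; the counting step is not given in the sources used here. Deposited count and TPM columns were used, and the FPKM columns were not used here. Columns were matched to samples by time and number. The table held 0 genes of the mitochondrial genome. Totals ran from 8313655 to 12893551 counts, and intervals cover counting error only.

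Genes with a mean of at least 0.5 TPM were fitted together over all 4 times with edgeR 4.0.16 (TMM scaling, glmQLFit with robust fitting, quasi-likelihood F test), with Benjamini-Hochberg adjustment within each comparison and a threshold of 0.05. Members below the filter got exact permutation tests in R 4.3.3. The procedure was tested on simulated data. Alternatives were median-of-ratios scaling, DESeq2 1.42.0, limma 3.58.1 on log2(TPM + 1) and log2(TPM + 0.1), other filters, the compared groups alone, a replicate block, non-robust fitting and leaving out libraries. Gene positions came from GENCODE M21 by gene ID, which held 90.7% of the table's IDs, and promoters from RefSeq.

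The members and lists were chosen with earlier results of these data known. All members were named, with Alb and relatives in their families. From each list, up to 4 genes with the smallest p past the threshold against 0h were named, and 3 neighbours in profile for each tested member, of which 1 for Lcn2 is not reported here. The C/EBP letters were settled after the sequences were seen.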

Additional observations from a re-analysis of the deposited data

Results flagged for a closer look

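Among 40 groups of 4 libraries (10 members at 4 times), 3 had 1 library set apart from the other three by Dixon's rule, where chance gives about 1 in 20. In each case a single read separated 1 library at 0h from 3 without a read, so the gap was the whole range, a ratio of 1. These were Saa1 in 0h replicate 4 (0.133 TPM), Saa3 in 0h replicate 1 (0.0957 TPM) and Orm1 in 0h replicate 1 (0.322 TPM).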

How the results depend on the processing

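Across the settings other than leaving out 1 library, the counts of members called stayed within 1.5 times the reported one in 64 of 77 values. At 3h against 0h the count was 5 with no filter, where 10 members were tested, and 1 without the libraries with Alb above 1 TPM. At 24h against 0h it was 2 without the libraries with Myl7 above 10 TPM. At 7d against 0h it was 1 with DESeq2. At 24h against 3h it was 1 and 0 without the libraries with Alb above 10 and above 1 TPM and 0 without those with Myl7 above 10 TPM, and on leaving out 1 library it ranged from 2 to 4. At 7d against 24h it was 0 without the Myl7-high libraries. At 7d against 3h it was 2 with DESeq2, 4 with no filter, 2 with the compared groups alone, 0 without the libraries with Alb above 1 TPM, and from 1 to 2 on leaving out 1 library. For any change over time it was 7 with no filter. Fits that left out libraries had fewer samples.

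Differences that changed sign were small or rested on few libraries, and the cause was not tested. Cp at 3h against 0h was -0.14 by limma with either pseudocount (-0.137 and -0.141), -0.070 and -0.057 without the libraries with Alb above 10 and 1 TPM, -0.011 without those with Myl7 above 10 TPM, and -0.036 to 0.12 on leaving out 1 library. Without the Myl7-high libraries Hp was -2.32 at 24h against 0h and 2.56 at 7d against 24h, and Saa3 at 7d against 3h was -0.22. Without the libraries with Alb above 10 and 1 TPM the latter was -0.64 and -1.25. On leaving out 1 library the ranges were -0.10 to 1.61 for Hp at 7d against 0h, -0.37 to 0.065 and -0.031 to 0.41 for Cp at 7d against 24h and 3h, -0.22 to 1.45 for Saa3 at 7d against 3h, and -0.076 to 0.039, -0.028 to 0.18 and -0.013 to 0.19 for A2m at 3h and 7d against 0h and 7d against 3h.

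Replicate numbers did not pair the libraries: over 24 same-number pairs the correlation of deviations ran from -0.12 to 0.06 and 0 of 16 libraries correlated best with their own number. With the replicate block, Lcn2 at 3h against 0h was 1.98 (adjusted p = 0.0686), and 2 members were called there. At 24h against 0h the block called 4. Genes with under about 10 counts in a group, here Saa1, Saa2, Saa3 and Orm1, are limited by depth.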
